A study of Mus musculus with 110 samples.

Results

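The genes described here belong to the pathway that carries antigens to the cell surface for T cells. As transcripts, 10 of them were followed through liver, interscapular brown (iBAT), inguinal white (iWAT) and epididymal white adipose tissue (eWAT). They were chosen by symbol as parts of this pathway, with earlier results of these data known, and make up 10 of the 56884 gene rows of the count tables. Class II was represented by 5 genes (Cd74, H2-Aa, H2-Ab1, H2-Eb1 and Ciita) and class I by 5 (H2-K1, H2-D1, B2m, Tap1 and Nlrc5). All 10 were found in the 3 tables and passed the minimum of 10 counts in every tissue.

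Class I molecules show peptides made inside the cell and are made by nearly all nucleated cells, whereas class II molecules show peptides taken up from outside and are made mainly by dendritic cells, macrophages and B cells. In class I, the heavy chains H2-K1 and H2-D1 pair with the light chain B2m, and Tap1 is a subunit of the transporter that brings peptides into the endoplasmic reticulum. In class II, H2-Aa is an alpha chain, H2-Ab1 and H2-Eb1 are beta chains, and the invariant chain Cd74 guards the groove until a peptide is loaded. Ciita and Nlrc5 are the transcriptional coactivators of class II and class I genes, respectively, and interferon gamma is a known inducer of both sets.

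The 200 bases before the start of 5 of them are shown because promoter boxes of both classes are known to lie before the start. Sequences are from RefSeq on GRCm38.p6, which matched 6 of the 10 genes, and Cd74, H2-Ab1, Ciita and Nlrc5 were not matched. Capitals mark matches on either strand to GATTGG (Y box), CTNGCAAC (X1 box core), TGACG (X2 box core), GAANNGAAA (interferon response core) or GGGGNTTCC (kappaB core of class I promoters).
H2-Aa, class II alpha chain, chr17:34287824-34288023, minus strand: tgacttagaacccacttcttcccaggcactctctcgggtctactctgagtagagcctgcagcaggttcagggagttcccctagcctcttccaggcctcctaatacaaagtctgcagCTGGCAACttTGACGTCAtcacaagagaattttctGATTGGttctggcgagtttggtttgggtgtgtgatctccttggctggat
H2-Eb1, class II beta chain, chr17:34305667-34305866, plus strand: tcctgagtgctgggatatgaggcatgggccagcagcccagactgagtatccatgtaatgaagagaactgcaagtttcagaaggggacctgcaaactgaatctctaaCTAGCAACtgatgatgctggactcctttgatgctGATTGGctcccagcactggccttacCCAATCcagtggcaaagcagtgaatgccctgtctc
H2-K1, class I heavy chain, chr17:34000334-34000533, minus strand: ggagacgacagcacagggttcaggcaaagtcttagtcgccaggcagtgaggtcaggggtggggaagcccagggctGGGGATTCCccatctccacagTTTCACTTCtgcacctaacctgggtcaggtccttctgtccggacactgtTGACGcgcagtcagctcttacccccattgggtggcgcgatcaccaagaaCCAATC
H2-D1, class I heavy chain, chr17:35262894-35263093, plus strand: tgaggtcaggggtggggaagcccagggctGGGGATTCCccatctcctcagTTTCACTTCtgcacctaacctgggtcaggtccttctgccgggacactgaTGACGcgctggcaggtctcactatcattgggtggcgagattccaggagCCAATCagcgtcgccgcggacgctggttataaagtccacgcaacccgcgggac
B2m, class I light chain, chr2:122147487-122147686, plus strand: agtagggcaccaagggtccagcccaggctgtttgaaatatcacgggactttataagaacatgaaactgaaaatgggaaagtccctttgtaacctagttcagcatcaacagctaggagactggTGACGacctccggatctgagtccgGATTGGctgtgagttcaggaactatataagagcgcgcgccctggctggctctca

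The Y box letters were found in all 5 windows, beside 12.9% of 32851 RefSeq promoter windows of the same length. The X1 letters were found in both class II windows (2.44% of all) and in none of the class I windows. The open letter N of this pattern is the one at which H2-Aa (CTGGCAAC) and H2-Eb1 (CTAGCAAC) differ. The X2 letters were found in H2-Aa, where matches on both strands overlap, and in the 3 class I windows (15.7% of all). The exact kappaB and interferon response letters were found in H2-K1 and H2-D1 only, beside 1.15% and 5% of all windows. The kappaB pattern is that of class I promoters, and the windows of H2-K1 and H2-D1 share long stretches. Their matches were thus to be anticipated and are not separate finds. Similar stretches with other letters or spacing, such as gaaactgaaa and gggaaagtccc in the B2m window, were not searched for and are not marked. The Tap1 window, not shown, held the X2 letters alone. A match describes letters and was not tested as a binding site, and at the second start that RefSeq has for H2-K1 the window held the X2, interferon response and kappaB letters but not the Y box.

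Of the 10 genes, 6 lie in the major histocompatibility complex on chromosome 17. In GENCODE M21 on GRCm38 these are H2-Ab1 (34257689 to 34269419), H2-Aa (34282744 to 34287823, minus strand), H2-Eb1 (34305867 to 34316674), Tap1 (34187553 to 34197225), H2-K1 (33996017 to 34000347, minus strand) and H2-D1 (35262730 to 35267499). The others are Cd74 (chromosome 18, 60803848 to 60812652), Ciita (chromosome 16, 10480059 to 10528418), B2m (chromosome 2, 122147686 to 122153083) and Nlrc5 (chromosome 8, 94434356 to 94527272), all on the plus strand. RefSeq and GENCODE place the starts of H2-D1 and H2-K1 differently, so that the H2-D1 window lies inside the GENCODE gene and the end of the H2-K1 window does too. The coordinates span whole genes, exons and introns included, and the annotation release behind the count tables is not settled.

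Male C57BL/6N mice, housed singly and 16 weeks old at the end, were fed cysteine-depleted diets for 7 days. The diets held 0.86% methionine (Ctrl) or 0.12% methionine (MetR, methionine restriction). Mice were kept at 22 °C (RT), or were exposed to 4 °C for 24 h after the 7 days (CE). The CE groups thus ended a day later, and cold and this added day cannot be told apart. The resulting groups are Ctrl_RT, Ctrl_CE, MetR_RT and MetR_CE, and 28 mice gave 110 libraries, of which 105 were used after leaving out 5 that matched those the study removed as outliers. Groups held 7 libraries, except 6 in Ctrl_RT and Ctrl_CE of iBAT, 6 in MetR_CE of iWAT, 4 in Ctrl_RT and 6 in MetR_RT of eWAT. Levels are given as CPM, counts scaled to the size of the library. Each library held 6987895 to 33444374 counts, the widest range being in liver. In 3 iBAT libraries the treatment tag names another group than the title, by which they were placed. Hepatocyte markers (Alb, Ttr, Apoa1 and Cyp2e1) summed to 45.73 to 129.8 CPM in iBAT, 720.3 to 2601 in iWAT and 3359 to 6703 in eWAT of Ctrl_RT. These sums lay above the 4.4 to 29.5, 248.3 to 564.4 and 495.8 to 1202 CPM of MetR_CE. The paper lists Cyp2e1 among the genes repressed in eWAT under MetR_CE, and the share of each gene in the sums is not given here. The part of these markers in the results was not tested.

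Without diet or cold, class I transcripts far outnumbered class II transcripts in every tissue. The 5 class I members were lowest in iBAT and the 5 class II members in liver, by their means on a scale common to all libraries. Levels between genes were compared as CPM per kb of merged exons. In Ctrl_RT, B2m was the highest member in all 4 tissues, at 1921 ± 191 CPM per kb in liver (SD, n = 7), 1398 ± 108 in iWAT (n = 7), 1021 ± 155 in eWAT (n = 4) and 228 ± 25.2 in iBAT (n = 6). H2-K1 came second in liver (702 ± 58.8) and H2-D1 second in the adipose depots, with 864 ± 82.2 CPM per kb in iWAT. Cd74 was the fourth in each tissue and the highest of the class II members, and Ciita was the lowest of all, at 0.170 CPM per kb in liver and 1.10 in iWAT. In liver the ranges of H2-Ab1, H2-Eb1 and Tap1, ranked from the seventh to the fifth, overlapped. H2-K1, H2-D1 and the H2-Q and H2-T genes are near-identical in parts, so reads could be split between them and their separate levels are uncertain.

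The order of the tissues differed between members. On the common scale, Cd74 was at 302 ± 79.7 CPM in iWAT, 218 ± 43.5 in eWAT, 60.7 ± 9.19 in iBAT and 56.9 ± 20.1 in liver. Liver and iBAT overlapped in Cd74, and so did the white depots, whereas both white depots lay above both of the others. H2-K1, in contrast, was at 2064 ± 173 CPM in liver, 1621 ± 175 in iWAT, 954 ± 37.8 in eWAT and 302 ± 26.4 in iBAT. B2m was likewise highest in liver, whereas H2-D1 stood at 2228 ± 212 CPM in iWAT, 1442 ± 99.6 in eWAT, 971 ± 104 in liver and 365 ± 38.5 in iBAT, and the means of Tap1 and Nlrc5 were also highest in iWAT.

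All 10 members were lower in iBAT than in iWAT (log2FC between -1.78 and -2.62, where 33.3% of all genes differed in either direction) and than in eWAT (-1.04 to -2.16, against 35.5%) by edgeR's quasi-likelihood test at an adjusted p under 0.05 and at least 1.5-fold. Liver differed from iWAT in 7 members (45.8% of genes), with all 5 class II members lower in liver by 2.41 to 2.88 on the log2 scale. Liver differed from eWAT in 7 (44.9%) and from iBAT in 7 (43.5%). In the latter comparison the 5 class I members were higher in liver, B2m by 8.43-fold and H2-K1 by 6.83-fold, and H2-Eb1 and Ciita lower. The white depots differed in 6 members, all higher in iWAT (7.87% of genes were), among them H2-Aa and Ciita just at the threshold (adjusted p = 0.04998 and 0.04937). With all 28 eWAT libraries, the latter count was 10. Tissue and library preparation cannot be told apart in these levels.

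**Figure D1:**
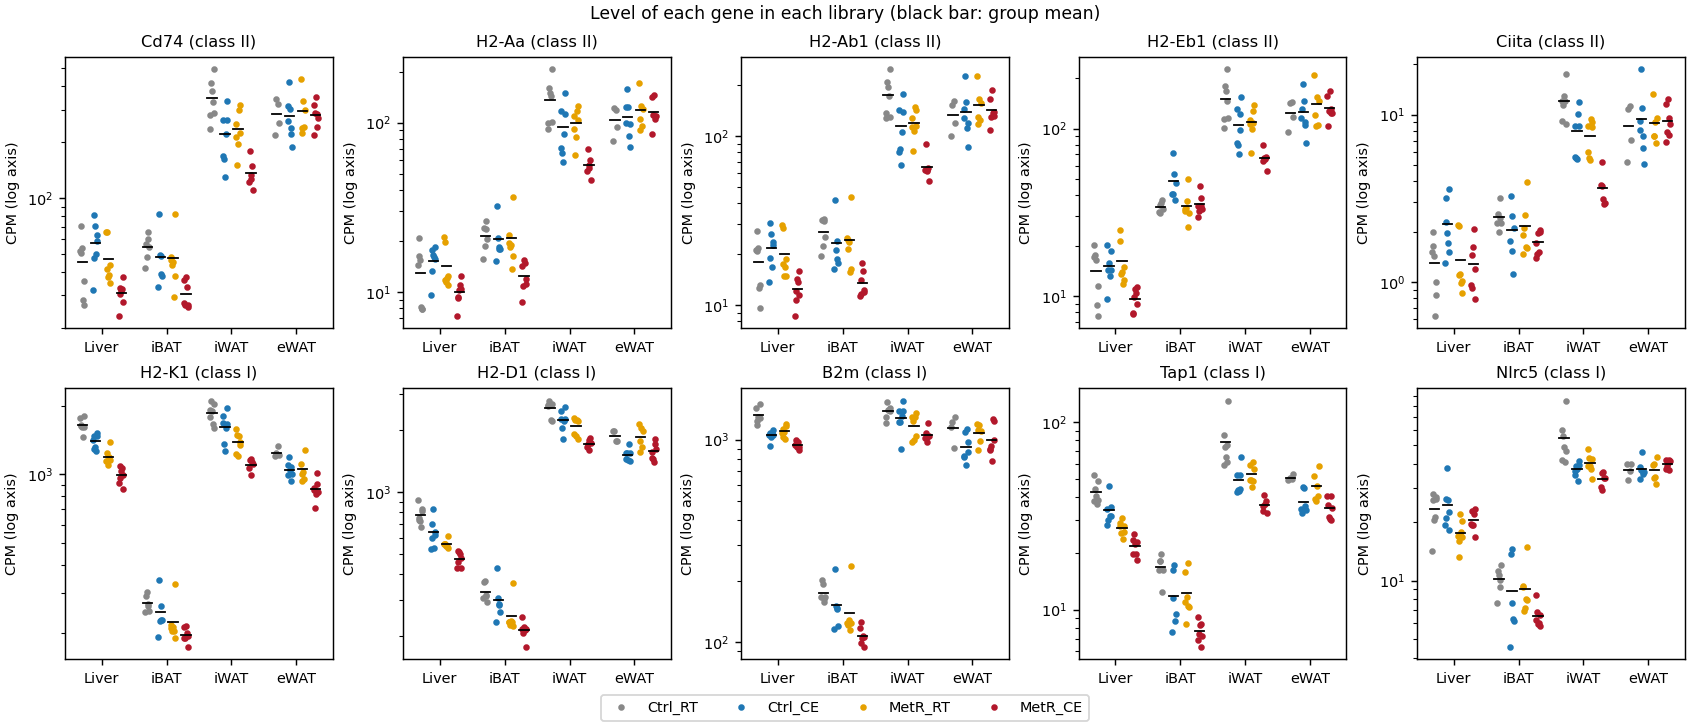
Level of each member in each of the 105 libraries, in CPM on a log axis, by tissue and group. Points are libraries and black bars group means. In iWAT the 6 MetR_CE libraries lie below the 7 Ctrl_RT libraries for all 10 members, and the class II members of eWAT show no such step.

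In iWAT, the combination of diet and cold was accompanied by lower transcripts of both classes. The difference between the classes was not tested. MetR_CE against Ctrl_RT lowered 8 of 10 members, where 14.4% of all 26428 genes tested were lower. All 10 members had ranges that did not overlap, which held downward for 9.34% of all genes. The 5 class II members were lowered by 2.25- to 3.31-fold, and the class I members called by 1.63- to 2.17-fold. The median log2FC was -1.35 over class II, -0.70 over class I and -0.08 over all genes.

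The invariant chain Cd74 ranged from 236.9 to 493.8 CPM in iWAT Ctrl_RT (median 330.6), from 130.2 to 335.6 in Ctrl_CE (222.8), from 151.2 to 317.4 in MetR_RT (224.9) and from 110.4 to 178.2 in MetR_CE (129.5). Both single treatments lay between the extremes and overlapped with Ctrl_RT. Cd74 fell by 1.35 on the log2 scale in MetR_CE (SE 0.20, adjusted p = 8.09e-06, edgeR).

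The alpha and beta chains of class II followed the same course. H2-Ab1 ranged from 127.9 to 247.9 CPM in Ctrl_RT (median 173.1) and from 54.42 to 89.36 in MetR_CE (62.56), with a log2FC of -1.40 ± 0.20 (SE, adjusted p = 4.41e-06). Its partner H2-Aa ranged from 91.53 to 206.4 CPM and from 46.04 to 70.13, with a log2FC of -1.27 ± 0.21 (adjusted p = 2.17e-05). For the second beta chain, H2-Eb1, the ranges were 100.3 to 225.4 and 55.71 to 79.58 CPM, and the log2FC was -1.17 ± 0.19 (adjusted p = 1.49e-05). In each of the 3 chains the highest MetR_CE library lay below the lowest Ctrl_RT library.

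The class II coactivator Ciita showed the largest drop of the 10. It ranged from 8.824 to 17.55 CPM in Ctrl_RT (median 11.98), 5.396 to 11.87 in Ctrl_CE (8.598), 5.367 to 9.437 in MetR_RT (8.452) and 2.94 to 5.193 in MetR_CE (3.437). MetR_CE lay below every library of the other groups. The log2FC of MetR_CE was -1.73 ± 0.21 (adjusted p = 4.88e-07). Ciita shares 329 of 9535 exon bases with Dexi on the opposite strand. Dexi stood at 12.92 to 17.29 CPM in iWAT Ctrl_RT and 13.13 to 15.15 in MetR_CE (this overlap was looked up after the values were seen). Whether the counting used strand is not given in the sources used here, so reads from overlapping exons cannot be told apart.

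Among class I members, the peptide transporter Tap1 changed most. It ranged from 59.43 to 130.3 CPM in Ctrl_RT (median 74.1) and from 32.61 to 40.84 in MetR_CE (36.29), and fell by 1.12 on the log2 scale (SE 0.14, adjusted p = 8.9e-07). H2-K1 went from 1601 to 2106 CPM (median 1897) down to 988.9 to 1164 (1123), with a log2FC of -0.75 ± 0.10 (adjusted p = 1.4e-06). The class I coactivator Nlrc5 went from 41.15 to 84.95 CPM (48.99) to 29.38 to 36.43 (33.85), with a log2FC of -0.70 ± 0.12 (adjusted p = 4.63e-05). One Ctrl_RT library, replicate 7, held the highest Tap1 and Nlrc5 levels, and without it the log2FC of Nlrc5 was -0.56 and no longer reached 1.5-fold. Tap1 and Psmb9, which lie head to head, share 212 of 5476 exon bases.

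H2-D1 and the light chain B2m missed the fold threshold but not the adjusted p. H2-D1 ranged from 2230 to 2783 CPM in Ctrl_RT and from 1599 to 1832 in MetR_CE (log2FC -0.57 ± 0.09, adjusted p = 1.76e-05, 1.48-fold). B2m ranged from 1208 to 1529 and from 971 to 1204 CPM (log2FC -0.38 ± 0.11, adjusted p = 0.00486), so that its groups were only just separate.

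Each treatment alone gave smaller changes in iWAT. Ctrl_CE lowered 4 members (9.94% of all genes were lower): Cd74 by 1.57-fold, H2-Ab1 by 1.53-fold, Ciita by 1.502-fold and Tap1 by 1.61-fold. MetR_RT lowered Ciita alone, by 1.60-fold (log2FC -0.68 ± 0.19, adjusted p = 0.00971; 7.36% of genes were lower). In Ctrl_CE no member had separate ranges (2.37% of genes, lower), and in MetR_RT H2-K1 did (2.96%). These calls sat near the fold threshold. Leaving out 1 library ended the Ctrl_CE call of Ciita in 13 of 27 fits, of H2-Ab1 in 6, of Cd74 in 4 (Ctrl_RT replicate 6 and Ctrl_CE replicates 2, 3 and 4, nearest to 0 at -0.54) and of Tap1 in 1 (Ctrl_RT replicate 7, -0.52), and it gave 1 to 6 called members in Ctrl_CE. For Ciita in MetR_RT the call was lost without Ctrl_RT replicate 6 (-0.56). The interaction of diet and temperature passed the test for 0 members in iWAT (1.65% of genes), and for 0 in DESeq2. An unadjusted p under 0.05 was reached by 0 members, beside 4921 of 26428 genes. The log2 values ran from -0.46 for Ciita to 0.26 for Nlrc5.

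**Figure D2:**
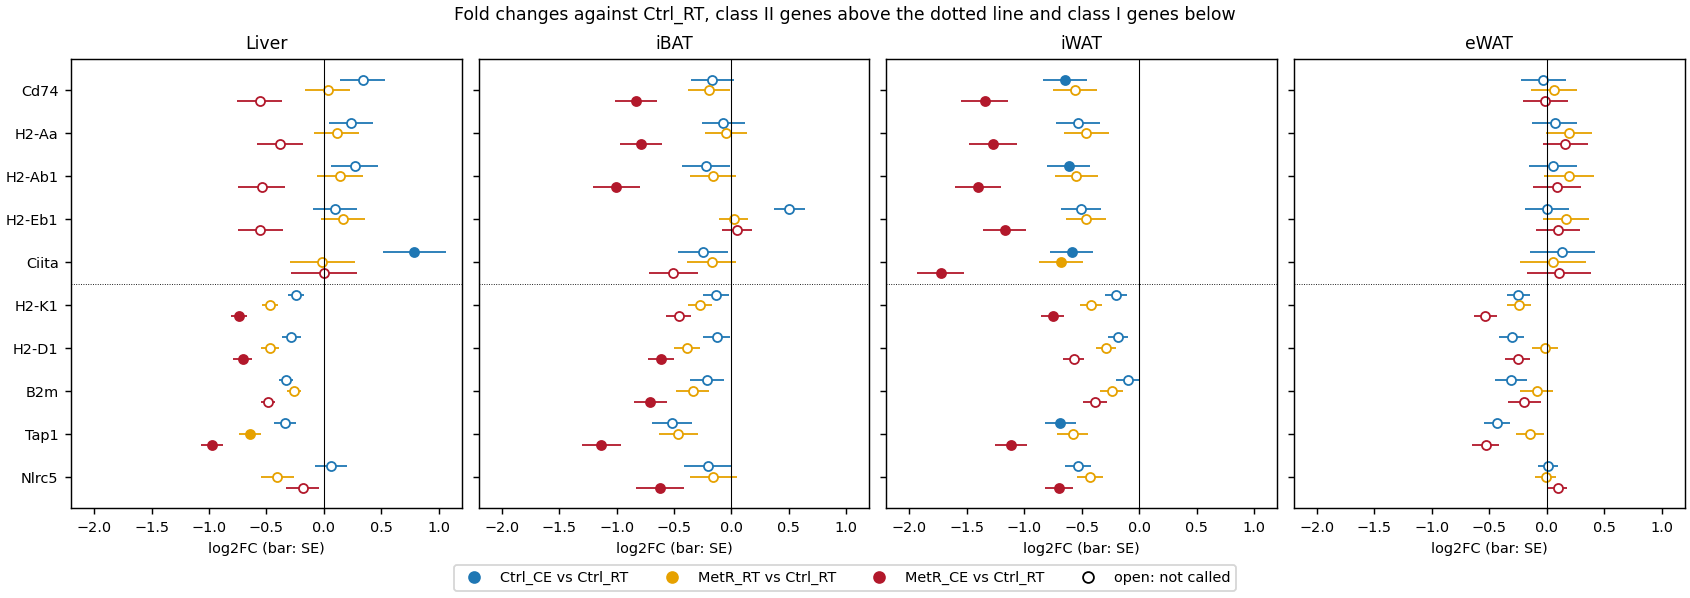
Log2FC of each member against Ctrl_RT in the 4 tissues, with bars of 1 SE. Filled points passed an adjusted p under 0.05 and 1.5-fold in edgeR, and open points did not. The class II genes of iWAT under MetR_CE lie between -1.17 and -1.73, those of eWAT between -0.01 and 0.16, and H2-Eb1 of iBAT stands apart from the other class II chains.

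Brown fat showed a lowering of both classes under MetR_CE, with H2-Eb1 as an exception among the chains. In iBAT, MetR_CE lowered 7 of 10 members (10.3% of genes were lower), and 7 had separate ranges (7.35%). Cd74 ranged from 42.04 to 65.54 CPM in Ctrl_RT (median 55.24) and from 25.9 to 37.69 in MetR_CE (27.13), a log2FC of -0.83 ± 0.18 (adjusted p = 0.000645). H2-Ab1 went from 19.59 to 32.35 CPM (28.38) to 11.3 to 17.66 (12.26), with a log2FC of -1.002 ± 0.21 (adjusted p = 0.000308). H2-Aa went from 15.66 to 26.37 CPM (22.08) to 8.739 to 15.47 (11.96), with a log2FC of -0.78 ± 0.18 (adjusted p = 0.00118). The MetR_CE libraries lay below all Ctrl_RT libraries for these 3 genes.

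H2-Eb1 did not pass in this contrast. It ranged from 31.49 to 37.69 CPM in iBAT Ctrl_RT (median 34.1), from 37.52 to 71.56 in Ctrl_CE (43.89), from 25.94 to 49.65 in MetR_RT (33.13) and from 29.52 to 45.4 in MetR_CE (34.36). Ctrl_CE stood highest, and the MetR_CE range enclosed that of Ctrl_RT. The log2FC was 0.50 ± 0.13 in Ctrl_CE (adjusted p = 0.00357, 1.42-fold) and 0.05 ± 0.13 in MetR_CE (adjusted p = 0.816, 95% interval -0.20 to 0.30).

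The transcripts of the chains thus parted within the same libraries, and which class II molecules reached the cell surface was not measured. The ratio of H2-Eb1 to H2-Ab1, formed after the values were seen, ranged on the log2 scale from 0.15 to 0.70 in iBAT Ctrl_RT (median 0.30), 0.78 to 1.41 in Ctrl_CE (1.08), 0.19 to 0.93 in MetR_RT (0.63) and 1.27 to 1.53 in MetR_CE (1.39). Both cold groups lay above Ctrl_RT without overlap, and MetR_RT overlapped with Ctrl_RT. In the other tissues the medians stayed between -0.50 and 0.05. Within that range the iWAT medians moved the same way, by less. They were -0.22 in Ctrl_RT, -0.10 in Ctrl_CE and in MetR_RT, and 0.05 in MetR_CE. The iWAT ranges of Ctrl_RT (-0.35 to -0.14) and MetR_CE (-0.17 to 0.09) overlapped. In iBAT the ratio of H2-Aa to H2-Ab1 moved far less, from a median of -0.31 in Ctrl_RT to -0.11 in MetR_CE, with overlap. An antisense gene, Gm20513, lies over H2-Eb1 without shared exon bases, and it stood at 0 to 0.119 CPM in iBAT.

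**Figure D3:**
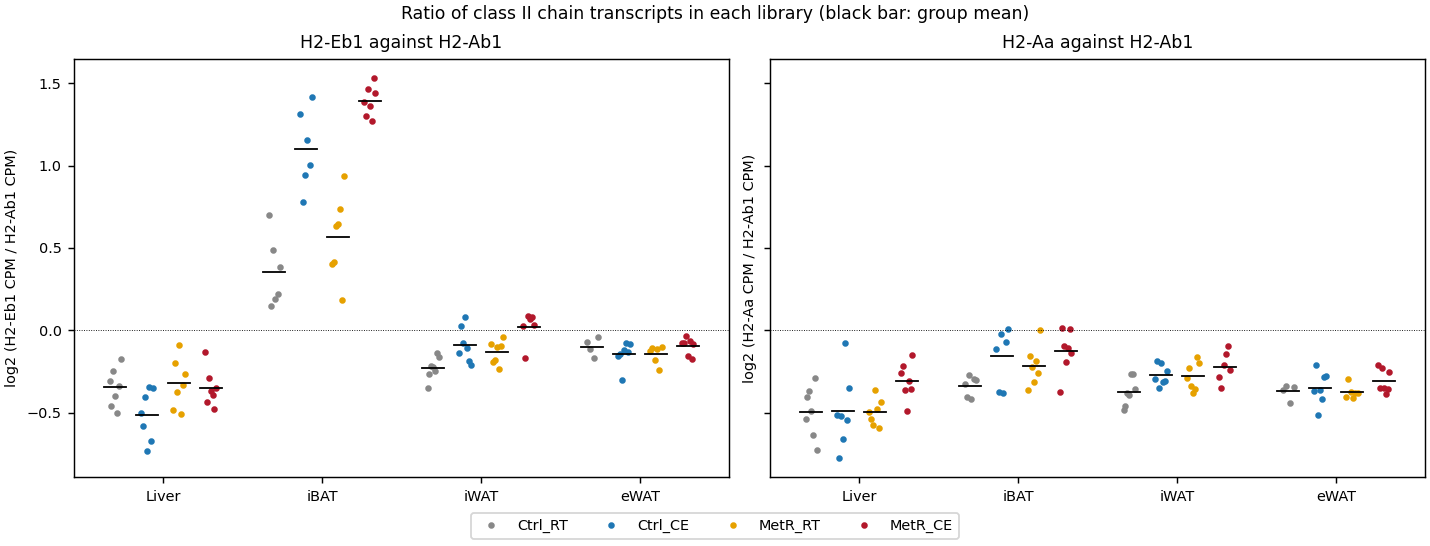
Log2 ratio of H2-Eb1 to H2-Ab1 and of H2-Aa to H2-Ab1 in each library, by tissue and group, with group means as black bars. In iBAT, the H2-Eb1 ratio of the cold groups (0.78 and above) lies over that of Ctrl_RT (0.70 and below), whereas the H2-Aa ratio overlaps between these groups.

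Of the class I members of iBAT, 4 of 5 were lowered, and the median log2FC was -0.62 beside -0.78 for class II and -0.10 for all genes. Tap1 ranged from 12.34 to 19.89 CPM in Ctrl_RT (median 17.17) and from 6.299 to 9.071 in MetR_CE (7.355), the largest drop of the 10 in this tissue (log2FC -1.13 ± 0.17, adjusted p = 5.56e-06). B2m went from 158.4 to 202.9 CPM (167.2) to 94.31 to 125 (105.7), with a log2FC of -0.71 ± 0.14 (adjusted p = 0.000233). H2-D1 went from 292.04 to 371 CPM (313.8) to 176.3 to 245.6 (216.5), with a log2FC of -0.61 ± 0.11 (adjusted p = 6.89e-05). These 3 genes had separate groups. Nlrc5 (log2FC -0.62 ± 0.21, adjusted p = 0.0195) overlapped between the groups.

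H2-K1 had separate ranges, from 247.8 to 303.6 CPM in Ctrl_RT and from 173.4 to 215 in MetR_CE, but stayed under 1.5-fold (log2FC -0.46 ± 0.11, adjusted p = 0.00124). Ciita stood at 1.985 to 3.183 and 1.389 to 2.036 CPM (log2FC -0.51 ± 0.21, adjusted p = 0.0697). The call of H2-D1 was lost on leaving out Ctrl_RT replicate 2 or 3 or MetR_CE replicate 7 (nearest to 0, -0.57), and that of Nlrc5 on leaving out Ctrl_RT replicate 6 (-0.57). Grouping by the treatment tag also ended the call of H2-D1 (-0.56).

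Neither treatment alone gave a called member in iBAT. In Ctrl_CE the count was 0 in edgeR and in DESeq2 (14.7% of genes). H2-Eb1 and Tap1 reached an unadjusted p under 0.05 in edgeR, beside 9812 of 23915 genes. Tap1 had a log2FC of -0.51 ± 0.18 (adjusted p = 0.023). In MetR_RT the count was 0 in both tools (2.50% of genes). In edgeR, 4 class I members reached an unadjusted p under 0.05, beside 5008 of 23915 genes. The lowest adjusted p was that of H2-D1 (0.0319, log2FC -0.39). Single libraries were high in both groups. Ctrl_CE replicate 2 held 82.06 CPM of Cd74 beside a group median of 43.71, and MetR_RT replicate 6 the same 82.06 beside 45.23. Leaving out 1 library, the count in Ctrl_CE became 1 (Tap1) in 3 of 26 fits, namely without Ctrl_CE replicate 2 or 4 or Ctrl_RT replicate 5. By treatment tag, 1 member was called in MetR_RT. The interaction passed for 0 members (0.372% of genes), and for 0 in DESeq2. An unadjusted p under 0.05 was reached by 3 in edgeR, beside 2964 of 23915 genes.

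In liver, MetR_CE was accompanied by lower class I transcripts, and no class II member was called lower in any contrast. MetR_CE lowered 3 members (7.22% of genes were lower), all class I: Tap1 by 1.96-fold, H2-K1 by 1.67-fold and H2-D1 by 1.63-fold. Separate ranges were found for 4, which includes B2m (5.65% of genes, lower).

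The step from group to group was seen in H2-K1, which ranged from 1456 to 1810 CPM in Ctrl_RT (median 1631), 1267 to 1522 in Ctrl_CE (1407), 1096 to 1391 in MetR_RT (1149) and 856.8 to 1086 in MetR_CE (991.5). MetR_CE lay below all other groups. The log2FC was -0.24 ± 0.07 in Ctrl_CE, -0.47 ± 0.07 in MetR_RT and -0.74 ± 0.07 in MetR_CE (adjusted p = 0.00683, 8.28e-06 and 1.21e-09), and the interaction term was -0.03 ± 0.10.

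Tap1 took the same steps. It ranged from 36.4 to 52.56 CPM in Ctrl_RT (median 40.34), 28.16 to 45.56 in Ctrl_CE (31.73), 23.84 to 30.74 in MetR_RT (28.04) and 18.33 to 25.29 in MetR_CE (22.42). Both MetR groups lay below every Ctrl_RT library. It was the single member called in MetR_RT (1.56-fold, log2FC -0.65 ± 0.09, adjusted p = 9.52e-06; 4.02% of genes were lower), and its log2FC in MetR_CE was -0.97 ± 0.10 (adjusted p = 4.04e-09).

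H2-D1 went from a median of 746 CPM in Ctrl_RT (677.5 to 915.4) to 480.7 in MetR_CE (427.6 to 518.2), a log2FC of -0.71 ± 0.08 (adjusted p = 7.13e-08). B2m went from 1287 CPM (1186 to 1504) to 936.8 (891 to 993.9), with a log2FC of -0.49 ± 0.06 (adjusted p = 1.54e-07, 1.40-fold). Nlrc5 did not share this course, at 14.19 to 28.05 CPM in Ctrl_RT and 16.82 to 23.55 in MetR_CE (log2FC -0.18 ± 0.14, adjusted p = 0.365). In MetR_RT, 3 members had separate ranges (H2-K1, H2-D1 and Tap1; 2.52% of genes, lower), and in Ctrl_CE B2m did (3.49%).

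Class II of the liver was low and variable. Cd74 ranged from 26.51 to 70.66 CPM in Ctrl_RT (median 50.61), 31.97 to 80.95 in Ctrl_CE (58.85), 34.76 to 65.79 in MetR_RT (41.58) and 23.2 to 37.44 in MetR_CE (31.37). All groups overlapped with Ctrl_RT. The log2FC of MetR_CE was -0.56 ± 0.20 for Cd74, -0.54 ± 0.21 for H2-Ab1 and -0.55 ± 0.20 for H2-Eb1 (adjusted p = 0.0303, 0.0462 and 0.0304), each under 1.5-fold. These 3 became called in 4, 4 and 5 of 28 fits that left out 1 library, so the count ran from 3 to 6. For Cd74 and H2-Ab1 these were the fits without Ctrl_RT replicate 5, 6 or 7 or MetR_CE replicate 6, with values down to -0.65, and for H2-Eb1 also that without MetR_CE replicate 4, down to -0.66. A covariate of B cell marker transcripts also raised the count to 6.

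Ciita was the exception in liver under cold. It ranged from 0.629 to 1.997 CPM in Ctrl_RT (median 1.432) and from 1.301 to 3.618 in Ctrl_CE (1.956), with overlap, and rose 1.73-fold (log2FC 0.79 ± 0.27, adjusted p = 0.02945; 7.28% of genes were higher). This call was lost in 5 of 28 fits without 1 library (Ctrl_RT replicates 5, 6 or 7, Ctrl_CE replicates 2 or 7; lowest 0.64) and with the B cell covariate (0.50). Dexi, which shares exon bases with Ciita, stood far higher in liver, at 32.6 to 45.12 CPM in Ctrl_RT and 26.36 to 35.99 in Ctrl_CE. Reads from the shared bases cannot be told apart, which limits both this call and the level of Ciita in liver. No other member was called in Ctrl_CE (11.9% of genes in either direction).

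The interaction of diet and temperature in liver passed the threshold for 0 members in edgeR (1.06% of genes). It was -0.93 ± 0.28 for Cd74, -0.95 ± 0.29 for H2-Ab1 and -0.81 ± 0.27 for H2-Eb1 (adjusted p = 0.0757, 0.0821 and 0.117), and -0.03 to 0.16 for the class I members. An unadjusted p under 0.05 was reached by 4 class II members, beside 3562 of 22143 genes. DESeq2 called 2, beside 411 of all genes. Without Ctrl_RT replicate 2 or Ctrl_CE replicate 1, Cd74 and H2-Ab1 passed in edgeR as well.

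In eWAT no member was called in any contrast. The counts were 0 in edgeR and in DESeq2, where 2.42% of genes were called in Ctrl_CE, 0.115% in MetR_RT, 1.30% in MetR_CE and 2.30% for the interaction. An unadjusted p under 0.05 was reached by 4 class I members in Ctrl_CE, 1 in MetR_RT and 3 in MetR_CE, and by 0 class II members, beside 5355, 2622 and 4236 of 27786 genes. Cd74 was at 218.9, 341.8, 322.1 and 253.04 CPM in the 4 Ctrl_RT libraries and at 219.9 to 348.9 in MetR_CE (median 283.1), nearly the same range. Its log2FC was -0.01 ± 0.20 with a 95% interval of -0.40 to 0.37.

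H2-K1 was at 1199, 1235, 1332 and 1213 CPM in eWAT Ctrl_RT and at 711.2 to 1014 in MetR_CE (median 854.2), without overlap. Its log2FC was -0.53 ± 0.10 (adjusted p = 0.00444), under the 1.5-fold threshold. Tap1 was at 49, 50.4, 49.68 and 52.61 CPM and at 30.23 to 40.55 (34.72), with a log2FC of -0.53 ± 0.12 (adjusted p = 0.0124). The ranges of these 2 class I genes were separate in MetR_CE (2.01% of genes, lower), and those of H2-K1, H2-D1 and Tap1 in Ctrl_CE (2.62%). With 4 libraries in Ctrl_RT, separate ranges arise more readily here than in the other tissues.

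The difference between the white depots was tested directly. Under MetR_CE the log2FC of 6 members was lower in iWAT than in eWAT (6.39% of all genes were), namely all 5 class II members and Nlrc5. The difference was -1.83 ± 0.35 for Ciita (adjusted p = 3.78e-05), -1.48 ± 0.32 for H2-Ab1, -1.42 ± 0.30 for H2-Aa, -1.32 ± 0.31 for Cd74 and -1.26 ± 0.27 for H2-Eb1 (adjusted p between 0.000194 and 0.000733), and -0.78 ± 0.23 for Nlrc5 (0.00782). For H2-K1, H2-D1 and B2m it was between -0.18 and -0.30 (adjusted p of 0.16 and above). Tap1, at -0.57 ± 0.20 (adjusted p = 0.0419), missed 1.5-fold. For Ctrl_CE and MetR_RT, 0 members differed in edgeR (4.18% and 3.52% of genes in either direction), with class II differences from -0.52 to -0.75. This zero depended on the eWAT libraries: with all 28 of them, 5 members differed in Ctrl_CE and 3 in MetR_RT, and limma voom gave 0 and 3.

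Between iBAT and iWAT, H2-Eb1 differed in both cold groups. Its log2FC was higher in iBAT by 1.02 ± 0.25 in Ctrl_CE (adjusted p = 0.00225; 3.73% of genes) and by 1.22 ± 0.26 in MetR_CE (adjusted p = 0.000176; 4.28%). Ciita differed by 1.22 ± 0.34 in MetR_CE (adjusted p = 0.00688). For H2-Aa, H2-Ab1 and Cd74 the difference in MetR_CE was 0.40 to 0.51 (adjusted p of 0.27 and above), and 0 members differed in MetR_RT (3.67% in either direction).

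Class II against class I was summed per library over the structural genes, 4 of class II (Cd74, H2-Aa, H2-Ab1, H2-Eb1) and 3 of class I (H2-K1, H2-D1, B2m). In iWAT the class II sum went from 556.7 to 1174 CPM in Ctrl_RT (median 793.3) to 266.6 to 417.3 in MetR_CE (313.3). The log2 ratio of the sums had a median of -2.75 in Ctrl_RT (-3.40 to -2.39), -3.33 in Ctrl_CE (-3.69 to -2.91), -2.98 in MetR_RT (-3.75 to -2.77) and -3.63 in MetR_CE (-3.86 to -3.25). MetR_CE stood lowest, and all groups overlapped.

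The ratio took other courses in the other tissues. In liver its median was -5.30 in Ctrl_RT (-6.16 to -4.69), -4.85 in Ctrl_CE (-5.53 to -4.45), -5.11 in MetR_RT (-5.28 to -4.34) and -5.24 in MetR_CE (-5.60 to -4.94). In iBAT it was -2.48, -2.35, -2.21 and -2.56, and in eWAT -2.71, -2.43, -2.57 and -2.44, in the same order of groups and with overlap. The medians of the depots thus lay between -3.63 and -2.21, and those of liver at -4.85 and below. No test was run on these sums.

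**Figure D4:**
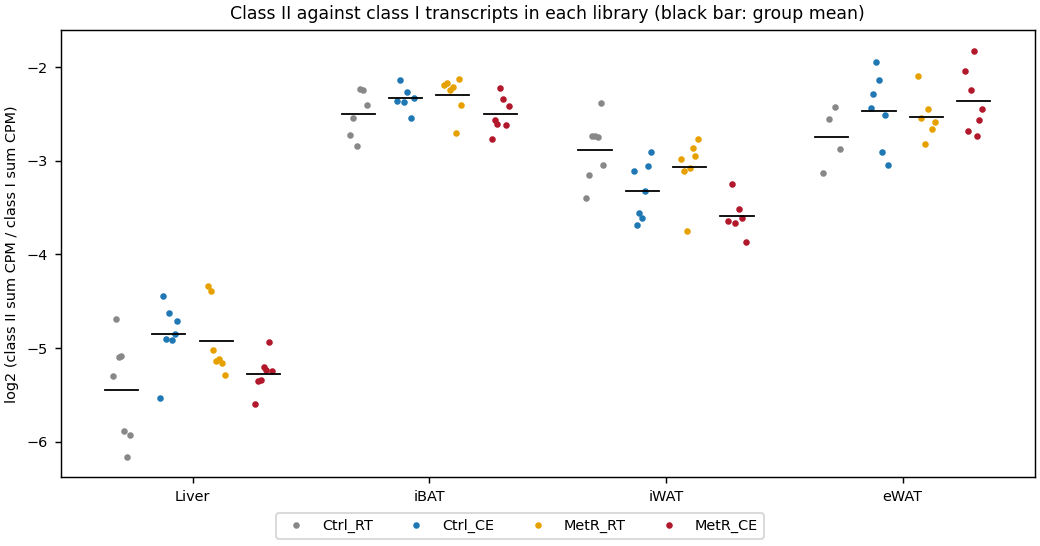
Log2 ratio of summed class II to summed class I CPM in each library, by tissue and group, with group means as black bars. Liver lies between -6.16 and -4.34, the adipose depots between -3.86 and -1.82, and the groups overlap within each tissue.

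Of 14 other genes of the class II pathway tested, MetR_CE lowered 10 in iWAT (median log2FC -1.45), 3 in iBAT (-0.44), 1 in liver (-0.13) and 0 in eWAT (-0.12), and raised none. Of all genes, MetR_CE lowered 14.4% in iWAT, 10.3% in iBAT, 7.22% in liver and 193 of 27786 in eWAT. These shares also stand beside the lists below, and the 1 gene of liver is near its share. In iWAT the peptide exchange chains H2-DMa and H2-DMb1 fell by 1.58 and 1.59 on the log2 scale, cathepsin S (Ctss), which cleaves Cd74, by 3.25, the ubiquitin ligase Marchf1, which removes class II from the surface, by 2.36, and the thiol reductase Ifi30 by 1.95. In iBAT, Ctss fell by 1.17, H2-DMb1 by 0.81 and the promoter factor Rfx5 by 0.78. In liver Rfxank, a partner of Rfx5, was the gene called (-0.82). Ctrl_CE lowered 6 of 14 in iWAT (9.94% of all genes) and MetR_RT 7 (7.36%).

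Of 20 other class I pathway genes, MetR_CE lowered 8 in liver (median log2FC -0.46), 7 in iBAT (-0.51), 8 in iWAT (-0.47) and 1 in eWAT (-0.13). The immunoproteasome subunits Psmb8 and Psmb9 fell by 1.11 and 1.09 on the log2 scale in liver, by 0.85 and 1.25 in iBAT and by 1.02 and 1.12 in iWAT. The aminopeptidase Erap1, which trims peptides, fell by 0.99 in iBAT. The nonclassical class I genes H2-T24 and H2-T23 fell by 1.99 and 1.13 in iWAT, and H2-Q7 by 0.85 in liver, with the limit of shared reads given above. One gene of the list, the chaperone calnexin (Canx), rose by 0.70 in iBAT. In eWAT it was calreticulin (Calr) that fell, by 0.62.

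Interferon gamma signalling and target genes were lowered by MetR_CE in iBAT (9 of 15 tested) and iWAT (9 of 16), in liver (2 of 15) and not in eWAT (0 of 16 in edgeR). In iWAT the guanosine triphosphatases Ifi47 and Igtp fell by 2.05 and 1.64 on the log2 scale. In iBAT, Igtp fell by 1.55 and the chemokine Cxcl9 by 1.25. In liver, Ifi47 fell by 1.60 and Iigp1 by 0.65. Cxcl10 of iWAT fell by 4.07, but 1 library, Ctrl_RT replicate 7, held 224.4 CPM beside a group median of 3.54. Ifng itself did not reach 10 counts in liver or iBAT.

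Markers of other cell types moved beside these genes. In iWAT all 8 macrophage markers were lower in MetR_CE (median log2FC -2.59), and their sum went from 1878 to 3187 CPM in Ctrl_RT (median 2015) to 266.1 to 655.6 (351.7). Ctrl_CE and MetR_RT also lowered 8 of 8 (medians -1.15 and -1.41). All 5 leukocyte markers fell in each of these contrasts, Ptprc by 2.49 in MetR_CE, and 5 of 7 dendritic cell markers in MetR_CE. The median log2FC of the class II members in the same contrast was -1.35. The dendritic cell marker Clec9a was not called (-0.37), nor was the B cell gene Cd79a (0.07), which was at 0.336 to 0.967 CPM in Ctrl_RT. Of the B and T cell marker lists, MetR_CE lowered 2 of 9 each, beside 14.4% of all genes. Their sums went from medians of 4.904 and 6.312 CPM in Ctrl_RT to 3.826 and 4.53. Brown adipocyte markers rose in 3 of 3, with a sum of 43.91 to 718.9 CPM in Ctrl_RT and 2777 to 6655 in MetR_CE. Adipocyte markers rose in 2 of 4, and 2127 of all 26428 genes were higher. The part of these markers in the result was not tested, and in bulk tissue fewer cells of a type and less RNA per cell cannot be told apart.

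In iBAT, MetR_CE lowered 7 of 8 macrophage markers (median -1.10), with a sum of 99.6 to 166.3 CPM in Ctrl_RT (106.4) and 40.8 to 69.66 in MetR_CE (48.97). MetR_RT lowered 5 of 8 (-0.80), beside 471 of 23915 genes, while no member was called. Of 9 B cell markers, Cd79a alone was lower in MetR_CE of iBAT (-0.73), near the share of all genes (10.3%). In liver, Ctrl_CE raised 5 of 8 macrophage markers (0.74, with 0 lower) and 3 of 4 Kupffer cell markers, beside 7.28% of genes. In that contrast Ciita rose, and H2-K1, H2-D1 and B2m had log2FC between -0.24 and -0.33. MetR_RT lowered 3 of 8 macrophage and 3 of 4 Kupffer cell markers, beside 4.02% of genes. In MetR_CE, 2 macrophage markers were lower (7.22% of genes) and Mrc1 was higher (1.13, beside 1385 of 22143 genes higher). All 4 endothelial markers rose in the same contrast, in which liver class I members fell, with a sum of 58.62 to 81.39 CPM in Ctrl_RT and 145.6 to 170.6 in MetR_CE, and 1 of 4 hepatocyte markers fell. The part of these markers was not tested. In eWAT 0 of 8 were called in each contrast in edgeR, and the sum went from 580.8 to 930.3 CPM in Ctrl_RT to 453.3 to 720.5 in MetR_CE.

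**Figure D5:**
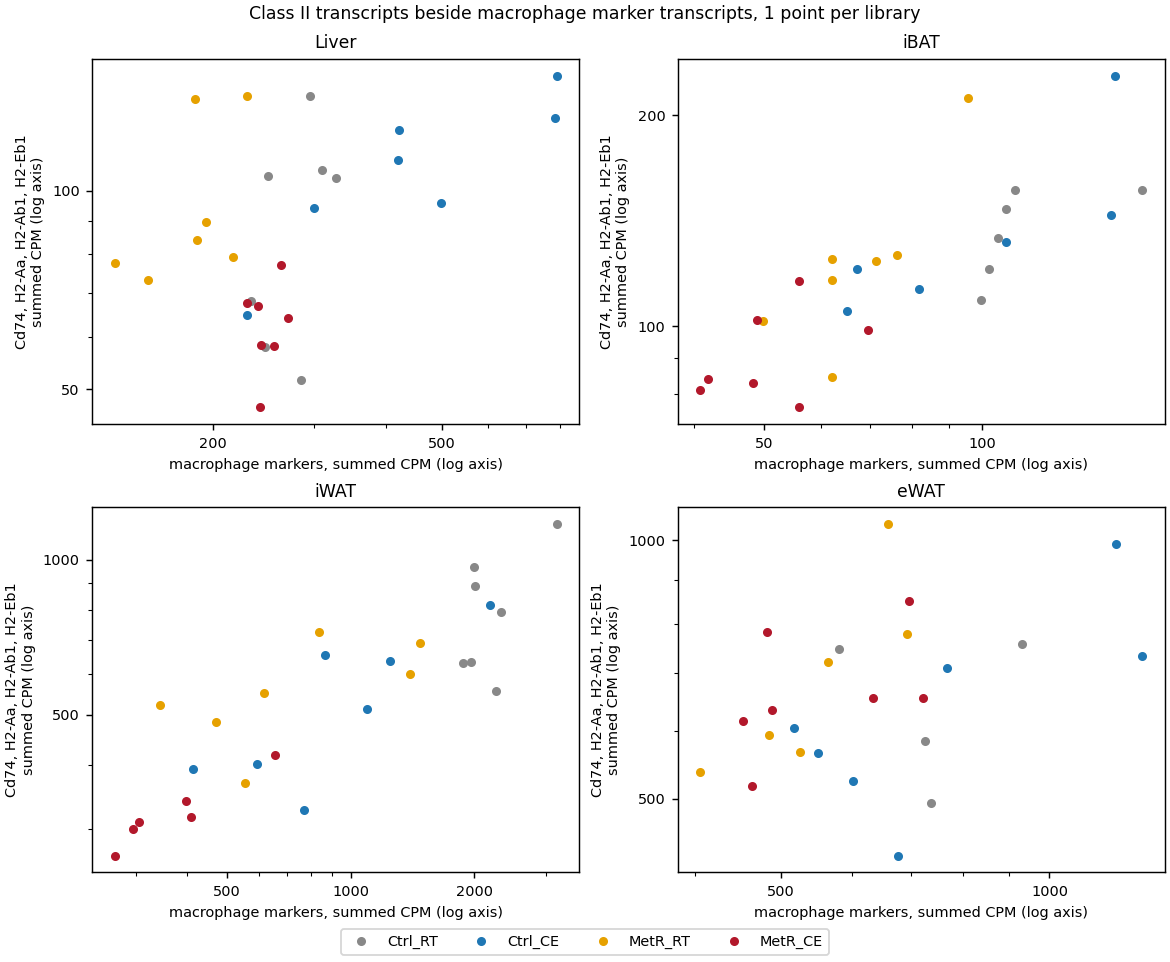
Summed CPM of Cd74, H2-Aa, H2-Ab1 and H2-Eb1 against the summed CPM of 8 macrophage markers, 1 point per library, on log axes, by tissue. In iWAT the 6 MetR_CE libraries hold 266.6 to 417.3 CPM of class II and at most 655.6 CPM of the markers, below all 7 Ctrl_RT libraries on both axes.

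How members varied together across libraries differed between the classes and tissues. Pearson's r between the log2 CPM of class II pairs had a median of 0.99 in iWAT (n = 27 libraries), 0.96 in eWAT (24), 0.92 in liver (28) and 0.68 in iBAT (26). For class I pairs it was 0.74, 0.41, 0.80 and 0.82, with the lowest pairs at -0.10 in eWAT (H2-K1 and Nlrc5) and 0.08 in liver (B2m and Nlrc5). Between the classes it was 0.77 in iWAT and 0.76 in iBAT, but 0.28 in liver and 0.13 in eWAT. These libraries share their groups and, within a pair, their depth, so the values describe and were not tested.

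Outside the members, the gene most like the class II mean was H2-DMa in iWAT (r = 0.95, n = 27), H2-DMb1 in liver (0.80, n = 28) and eWAT (0.89, n = 24), and H2-Q4 in iBAT (0.88, n = 26), where the leukocyte gene Ptprc was among the 5 most like it (0.86). The gene most like the class I mean was Psmb8 in liver (0.95) and iBAT (0.91), Thy1 in iWAT (0.93) and Cst3 in eWAT (0.83). The macrophage marker list, as the log2 of its summed CPM plus 1, had an r with the class II mean of 0.86 in iWAT, 0.79 in iBAT, 0.41 in liver and 0.40 in eWAT. Its most abundant genes weigh most in such a sum.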

How the data were processed

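For 110 libraries, raw counts per gene, as whole numbers without normalization, were deposited by the authors in 3 tables. The study's methods and the submitters' processing notes name STAR 2.7.9a, featureCounts 2.0.3 and Salmon 1.9.0 on mm10, and which of the counters made the tables is not settled. Symbols were matched by Ensembl ID without its version for 51948 of 56884 rows. The methods name GENCODE M25, coordinates are from M21, and 35 of the 56884 IDs carry the version they have in M21, so the annotation release behind the tables is not settled. Use of strand in counting is not given in the sources used here.

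Libraries were grouped by title. The study left out 5 libraries as outliers and its methods give their number per group, not their names. Those whose removal came nearest to the mean counts in its source data, among 8 subsets in iBAT and 246 in eWAT, were left out here too (Ctrl_CE replicate 5 in iBAT, Ctrl_RT replicates 2, 4 and 5 and MetR_RT replicate 7 in eWAT). Genes with at least 10 counts per tissue were tested (liver 22143, iBAT 23915, iWAT 26428, eWAT 27786, and 32143 over all tissues) with edgeR 4.0.16 in R 4.3.3: TMM factors, a quasi-likelihood fit over all 4 groups with diet, temperature and their interaction, and Benjamini-Hochberg adjustment over all genes. Called means an adjusted p under 0.05 and at least 1.5-fold. The SE is the absolute log2FC over the square root of F, and 95% intervals use the normal quantile. CPM are TMM-scaled within a tissue, except where a common scale is named. Differences between tissues came from 1 fit over all tissues. The same mice gave the tissues and so pair the libraries across them, and the mouse was taken as a block in an alternative.

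The members and all gene lists were chosen with earlier results of these data known. All members are named, and from each other list at most the 3 largest changes among called genes with a mean of at least 1 CPM, besides fixed cell type markers (Cd79a, Clec9a and Ptprc among them) and the 5 genes most like each class. Psmb8, Psmb9, H2-DMa, H2-DMb1 and Canx are given beyond this rule and were chosen after their values were seen. Libraries are single animals, and depth sets the counting error of low genes such as Ciita. The fits were tested on simulated counts. Alternatives were DESeq2 1.42.0, limma 3.58.1, RLE factors, other filters, all libraries, groups by tag, only the compared groups, blocks, a B cell marker covariate, no fold threshold, and each library left out in turn. Figures used matplotlib 3.10.9.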

Additional observations from a re-analysis of the deposited data

Results flagged for a closer look

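Of 160 groups of 4 to 7 libraries tested for a member's level, 22 held 1 library far from the others by Dixon's criterion, where chance gives about 1 in 20 groups. Most of these values came from 2 libraries of iBAT, and each was the highest of its group. MetR_RT replicate 6 of iBAT stood out in 8 members, with 82.06 CPM of Cd74, 36.51 of H2-Aa, 43.66 of H2-Ab1, 3.94 of Ciita, 329.5 of H2-K1, 362.5 of H2-D1, 236.5 of B2m and 14.82 of Nlrc5. Ctrl_CE replicate 2 of iBAT stood out in 5, with 82.06 CPM of Cd74, 32.25 of H2-Aa, 41.76 of H2-Ab1, 426.2 of H2-D1 and 229.3 of B2m. H2-Eb1 did not meet the criterion in either library. Its highest levels in these groups were nonetheless in the same 2 libraries, at 49.65 CPM in MetR_RT and 71.56 CPM in Ctrl_CE.

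Single values stood out elsewhere. In liver these were Ctrl_CE replicate 4 (Tap1 45.56 and Nlrc5 38.01 CPM) and MetR_RT replicate 6 (H2-D1 610.3 CPM). In iWAT they were Ctrl_RT replicate 7 (Tap1 130.3 and Nlrc5 84.95 CPM) and MetR_CE replicate 2 (H2-Ab1 89.36 and Ciita 5.193 CPM). In iBAT MetR_CE replicate 2 held 8.417 CPM of Nlrc5, and in eWAT Ctrl_CE replicate 4 held 46.38 CPM of Nlrc5. What set these libraries apart was not tested.

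Changes that differed between tissues in the test of the difference itself were 9. Between iBAT and iWAT these were H2-Eb1 in Ctrl_CE (1.02 on the log2 scale) and in MetR_CE (1.22) and Ciita in MetR_CE (1.22), all higher in iBAT. Between iWAT and eWAT under MetR_CE these were Ciita (-1.83), H2-Ab1 (-1.48), H2-Aa (-1.42), Cd74 (-1.32), H2-Eb1 (-1.26) and Nlrc5 (-0.78), all lower in iWAT.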

How the results depend on the processing

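No called value turned its direction under the alternatives run. Without a fold threshold, the members at an adjusted p under 0.05 were 5, 5 and 7 in liver (Ctrl_CE, MetR_RT, MetR_CE), 2 and 1 in iBAT (Ctrl_CE, MetR_RT), 7 and 7 in iWAT (the same contrasts), and 1 and 2 in eWAT (Ctrl_CE, MetR_CE), beside 6388, 4157 and 6714 of 22143 genes in liver, 7936 and 1626 of 23915 in iBAT, 8145 and 5932 of 26428 in iWAT, and 1463 and 749 of 27786 in eWAT. A B cell marker covariate gave 0 in Ctrl_CE and 6 in MetR_CE of liver and 4 in MetR_RT of iWAT. DESeq2 gave 2 for the interaction in liver, grouping by tag 1 in MetR_RT of iBAT. With all libraries, iWAT and eWAT differed in 5 (Ctrl_CE), 3 (MetR_RT) and, in Ctrl_RT levels, 10 members, and limma voom gave 3 for MetR_RT. For these the cause was not tested. Leaving out each library gave 0 to 1 (Ctrl_CE), 3 to 6 (MetR_CE) and 0 to 2 (interaction) in liver, 0 to 1 in Ctrl_CE and 6 to 7 in MetR_CE of iBAT, and 1 to 6, 1 to 4 and 8 to 9 in Ctrl_CE, MetR_RT and MetR_CE of iWAT. Replicate numbers do not pair the libraries (own number best matched in 2 of 28, 5 of 26, 4 of 27 and 7 of 24); as a replicate block they gave 2 members in MetR_RT of iWAT and ended the calls of H2-D1 and Nlrc5 in iBAT (-0.58 each). The mouse as a replicate block, added for the differences between tissues after the data were seen, gave 7 members for the MetR_CE difference of iWAT and eWAT and 4 for their Ctrl_RT levels, and left the other counts between tissues as they were. Calls within about 0.1 of the fold threshold, and the 4 Ctrl_RT libraries of eWAT, limit what these counts show.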
